A study of Arabidopsis thaliana with 6 samples.

Results

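STZ, BZIP60 and PUB19 are Arabidopsis genes whose products regulate stress responses in different ways, and their transcripts were followed here in shoots of etiolated seedlings that were flown in space or kept on the ground. The 3 genes were selected on the flight and ground values of these same arrays, where all 3 were lower in flight, so their own differences are given as a description and without a test. Each of these 3 of 13350 named genes is measured by 1 of the 13513 probe sets that the platform annotation ties to a single gene. STZ is AT1G27730, BZIP60 is AT1G42990 and PUB19 is AT1G60190.

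STZ, also called ZAT10, is a zinc finger transcription factor that represses transcription and is induced by salt, cold, strong light and oxidative stress. BZIP60 is a leucine zipper transcription factor held in the membrane of the endoplasmic reticulum; when unfolded proteins build up there, the sensor IRE1 cuts its mRNA, and the spliced form encodes a nuclear protein that switches on chaperone genes. PUB19 is a U-box ubiquitin ligase, an enzyme that marks other proteins for degradation, and together with its near relative PUB18 it dampens responses to the drought hormone abscisic acid. The arrays read transcript level only, and the splicing of BZIP60 mRNA and the amounts of the proteins were not measured here.

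Seedlings of the Landsberg (LER-0) accession, with no mutation or transgene named, grew in the dark in BRIC-PDFU canisters, which hold Petri dishes for flight. The labels put 3 arrays in the spaceflight group and 3 in the ground control, both with replicates 2, 3 and 4. They give no seedling age and no length of flight, and nothing in them tells whether the arrays came from separate dishes or canisters. The p-values therefore measure only the spread between these 3 samples a group, which may be technical, and the small number of arrays limits precision. An unexplained letter in the titles differs between the groups and cannot be told apart from flight. In bulk tissue, fewer cells of a type and less RNA per cell cannot be told apart either.

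The median deposited value of an array was 2.15 to 2.24 in log2 units. Of the markers fixed for the labelled tissue, 2 of 10 shoot genes were measured. PORB, a chlorophyll synthesis enzyme, ran from 2.40 to 4.71, and the meristem gene CLV3 stayed below the array medians. Of 7 root markers 3 were measured. The root hair expansins EXPA7 and EXPA18 lay between 0.957 and 1.89 on all arrays, below the medians, while PYK10, a beta-glucosidase gene listed as a root marker, ran from 9.45 to 10.87. Seed transcripts set arrays of one group apart: 4 of 14 seed storage and oil body markers were measured, and their mean was 1.90, 8.31 and 8.50 in ground replicates 2, 3 and 4 and 2.44, 1.86 and 4.56 in flight replicates 2, 3 and 4.

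STZ read 6.52, 7.05 and 6.53 in ground replicates 2, 3 and 4 and 4.60, 5.22 and 4.97 in flight replicates 2, 3 and 4. Every flight array was below every ground array. The group means were 6.70 ± 0.30 on the ground and 4.93 ± 0.31 in flight (log2, SD, n = 3), a difference of -1.76 with a standard error of 0.25, or a 3.40-fold higher level on the ground. The spread was nearly the same in the 2 groups. Among the ground arrays replicate 3 lay above the other 2, which were nearly equal.

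BZIP60 read 4.36, 4.26 and 4.78 on the ground and 3.22, 3.45 and 3.64 in flight, with replicates in the same order. It had the smallest difference of the 3 genes, and its closest flight and ground arrays were 0.62 apart. Its means were 4.47 ± 0.27 on the ground and 3.44 ± 0.21 in flight (log2, SD, n = 3), a difference of -1.03 with a standard error of 0.20, or a 2.04-fold higher level on the ground. Ground replicate 4 gave the highest value and flight replicate 2 the lowest.

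PUB19 read 6.88, 6.07 and 7.27 on the ground and 4.26, 2.03 and 3.20 in flight. It had the largest difference of the 3 and by far the widest spread among flight arrays. Its means were 6.74 ± 0.61 and 3.16 ± 1.12 (log2, SD, n = 3), a difference of -3.58 with a standard error of 0.74, or a 12.0-fold higher level on the ground. Flight replicate 3 read 2.03, below its array median of 2.22, and whether the transcript was present on that array cannot be said, since no detection calls were used here. Of all probe sets tested, 99.6% had a smaller SD among the flight arrays than PUB19, against 81.4% for STZ and 60.1% for BZIP60.

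**Figure D1:**
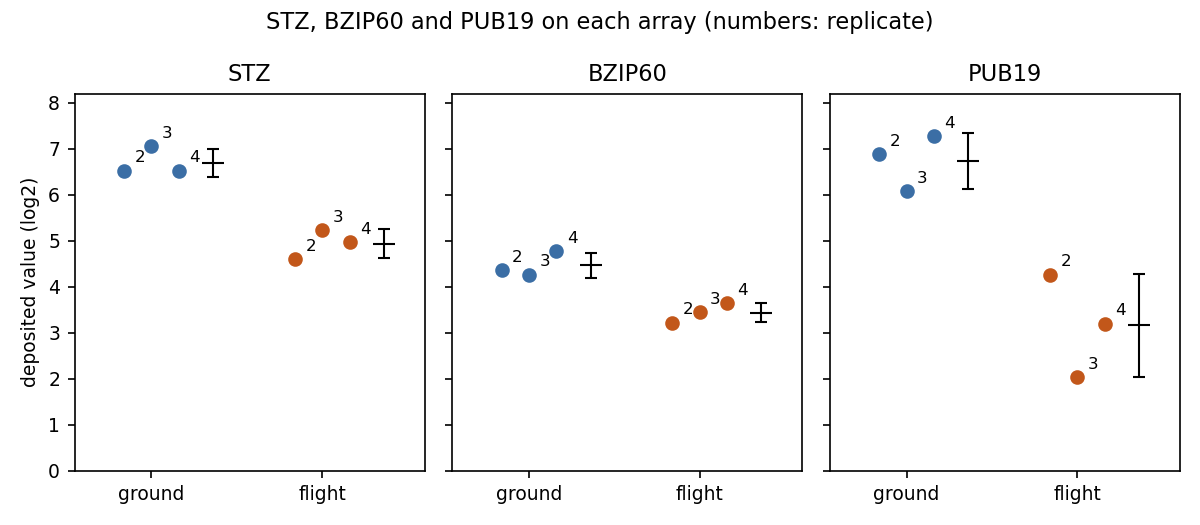
Deposited log2 values (vertical axis) of STZ, BZIP60 and PUB19 on the 3 ground (blue) and 3 flight (orange) arrays, each point marked with its replicate number; bars show the mean ± SD. In each panel all flight points lie below all ground points, and the flight points of PUB19 spread from 2.03 to 4.26.

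All flight arrays lay below all ground arrays in 3 of 3 genes, an arrangement found in 11.8% of the 22746 probe sets tested. All 3 were among the probe sets called lower in flight by limma with a Benjamini-Hochberg adjusted p under 0.05, as were 1.82% of probe sets, while 4.13% were called higher; nothing is read from the first count, since these values chose the genes. Ordered by size of fall among the 205 single-gene probe sets called lower, PUB19 was in place 11, STZ in place 52 and BZIP60 in place 145. BZIP60 was not among the called probe sets without flight replicate 2 (difference -0.92), flight replicate 3 (-1.04), flight replicate 4 (-1.13) or ground replicate 4 (-0.87), nor PUB19 without flight replicate 4 (-3.60). Calls on genes chosen by these values are no test, and no order of stability is read from them.

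The 3 genes did not order the arrays alike within a group. Among the flight arrays STZ was highest in replicate 3, BZIP60 in replicate 4 and PUB19 in replicate 2, and flight replicate 3, the highest for STZ, was the lowest for PUB19. Among the ground arrays STZ was highest in replicate 3, where BZIP60 and PUB19 were lowest, and those were both highest in replicate 4.

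Whether the seed transcripts bear on the 3 genes was not tested, and the values are given side by side. Ground replicate 2, with a seed marker mean of 1.90, was above the flight mean by 1.59 for STZ, 0.92 for BZIP60 and 3.72 for PUB19. Flight replicate 4, with the highest seed marker mean in flight, lay below the ground mean, with differences of -1.72, -0.83 and -3.54. Both follow from every flight array lying below every ground array in these genes, which were chosen on these values. With the seed marker mean as a covariate the differences were -1.66, -0.91 and -3.59. On the 3 arrays with low seed transcripts alone, flight replicates 2 and 3 against ground replicate 2, they were -1.61, -1.02 and -3.74. With the covariate BZIP60 and PUB19 were no longer among the called probe sets, and on those 3 arrays none of STZ, BZIP60 and PUB19 was.

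**Figure D2:**
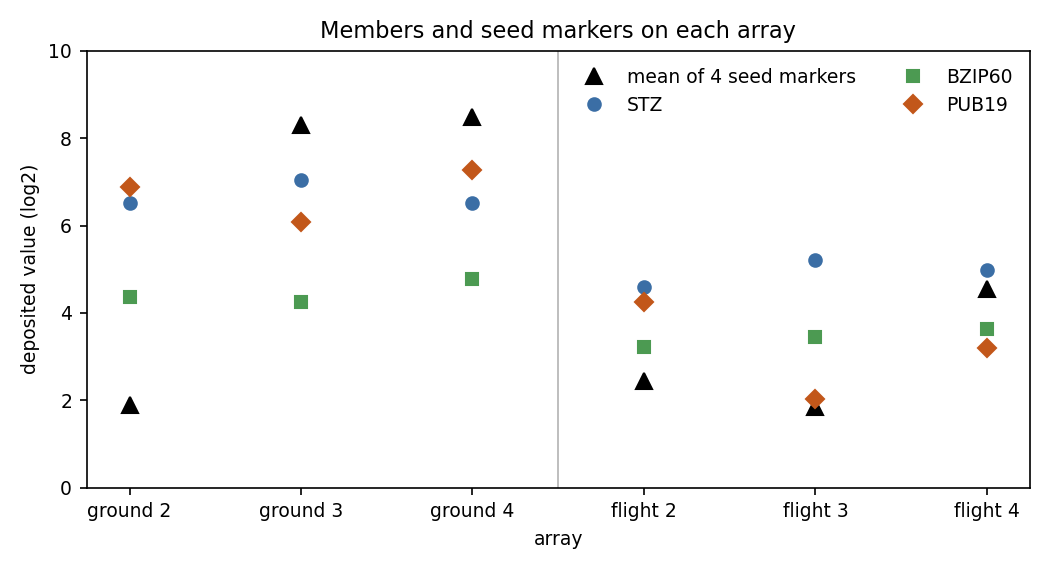
Log2 values (vertical axis) of STZ, BZIP60 and PUB19 and the mean of 4 seed storage and oil body markers (triangles) on each array. The triangles stand at 1.90 in ground replicate 2 and at 8.50 in ground replicate 4. Each of the 3 genes, chosen on these values, is higher on all ground arrays than on any flight array.

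PUB19 belongs to a large family of U-box ligases, of which 8 others have a single-gene probe set annotated with a PUB symbol and number. Family members under another name or without a name in the annotation were not counted. None of these 8 was called in either direction (0 higher and 0 lower by limma, 1 at an unadjusted p under 0.05, as were 21% of all probe sets), and their median difference was -0.11, beside -0.02 over all probe sets. PUB18, the near relative of PUB19, is not among the named probe sets and was not analysed here.

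PUB24 came nearest to PUB19 in direction. With PUB22 and PUB23 it forms a trio of ligases that dampen immune signalling. PUB24 read 5.31, 3.84 and 3.99 in ground replicates 2, 3 and 4 and from 2.99 to 3.27 in the 3 flight arrays. All flight arrays were below all ground arrays, but ground replicate 2 stood well above the other ground arrays. It differed by -1.29 (SE 0.38, limma adjusted p 0.102). Without ground replicate 2 it was -0.83 with an adjusted p of 0.0323. It passed the threshold as well after spike-in centring (limma adjusted p 0.0432) and with the seed covariate (0.0284). Of the 6 fits with 1 array left out, only that without ground replicate 2 passed. PUB24 did not pass with quantile normalization (0.0928), median centring (0.0963), array weights (0.0807) or the replicate block (0.103). Nor did it pass with the trended and robust prior or with dim probe sets dropped. The 3 arrays low in seed transcripts hold ground replicate 2 as their only ground array, so they give no separate value for PUB24.

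The other members of that trio showed no such shift. PUB22 differed by -0.21 (SE 0.21, limma adjusted p 0.631), but it lay below the array medians on all arrays, where a fall may not show. PUB23 differed by 0.052 (SE 0.16, adjusted p 0.897), the largest positive difference of the 8. PUB25 and PUB26, a pair of ligases known from freezing responses, differed by -0.36 (adjusted p 0.520) and -0.35 (0.336) in limma. In both, flight and ground arrays overlapped. PUB49, PUB15 and PUB43 had differences between -0.0049 and 0.018. Like PUB22, PUB15 lay below the array medians on all arrays.

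**Figure D3:**
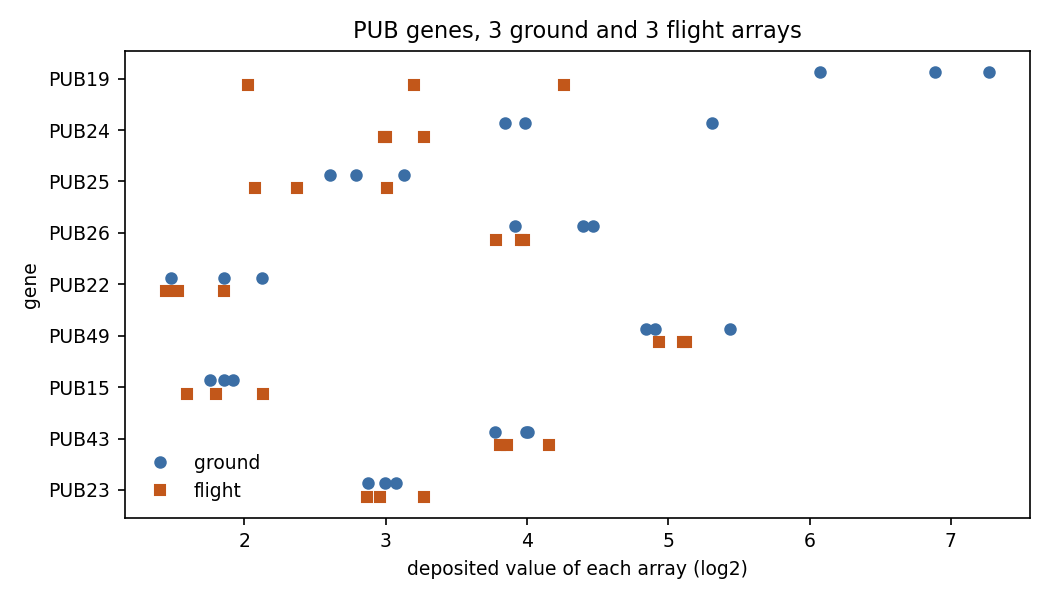
Log2 value (horizontal axis) of each PUB gene on the 3 ground (circles) and 3 flight (squares) arrays. The groups are apart in PUB19 and PUB24 and overlap in the other 7 genes.

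The unfolded protein response, in which BZIP60 acts, is represented by 11 measured genes of a list of 42. None was called in limma (0 higher and 0 lower), 3 had an unadjusted p under 0.05, and the median difference was -0.19, beside -0.02 over all probe sets. These 3 were higher in flight, as were 12.5% of all probe sets at that p: OS9, which picks out misfolded glycoproteins for disposal, by 0.64 (adjusted p 0.165), the co-chaperone gene ATERDJ2A by 0.57 (0.0739) and the calreticulin gene CRT1b, a chaperone of glycoproteins, by 0.74 (0.200). Without ground replicate 2 CRT1b differed by 1.04 with a limma adjusted p of 0.0340. That was the only alternative fit in which CRT1b was called.

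CRT1b read 6.88, 6.12 and 5.84 on the ground and 7.30, 7.02 and 6.74 in flight, so that ground replicate 2 lay within the flight range. The co-chaperone gene ATERDJ3B read 7.10, 5.49 and 6.73 on the ground and 7.22, 6.99 and 6.94 in flight, and the groups overlapped. In both genes the flight mean was the higher one.

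The other stress sensors of the endoplasmic reticulum are the membrane-held factors BZIP17 and BZIP28. S1P is a protease that acts on membrane-held factors of this kind. BZIP28 differed by -0.065 (SE 0.17, limma adjusted p 0.876), BZIP17 by -0.52 (SE 0.30, 0.385) and S1P by -0.57 (SE 0.31, 0.368). In BZIP17 and S1P ground replicate 4 was the highest array, at 4.60 and 4.05, as it was for BZIP60. The derlin genes, whose products take part in export of misfolded proteins, differed by -0.40 for DER1 (adjusted p 0.455) and -0.34 for DER2.1 (0.265). All flight arrays were below all ground arrays in DER2.1 alone of the 11 genes (11.8% of all probe sets), and above them in 2, ATERDJ2A and OS9 (14.2% of all). A second DER1 probe set differed by -0.12. The largest negative difference of the list was -1.24 in AT5G07340 (adjusted p 0.363). It read 6.92 in ground replicate 4, 4.96 and 3.90 in ground replicates 3 and 2, and 3.84 to 4.12 in flight, with ground replicate 4 far above the other 5 arrays.

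Of the 13 other genes with a bZIP symbol, a group formed after the values were seen, 2 were called, both higher in flight. Of all probe sets 4.13% were called higher and 1.82% lower. BZIP61 read 4.39, 4.37 and 4.13 on the ground and 5.98, 6.15 and 5.98 in flight. It rose by 1.74 (SE 0.14, limma adjusted p 0.00299) and passed in 6 of 6 fits with 1 array left out and in 9 of 9 other alternatives. BZIP34 rose by 0.87 (SE 0.16, adjusted p 0.0273), from 2.48 ± 0.08 to 3.35 ± 0.23 (log2, SD, n = 3). Leaving out 1 array at a time kept its call in 1 of 6 fits, when ground replicate 2 was dropped (0.85). Dropping any of the others gave 0.74 to 0.96 and no call. BZIP34 was also not called after spike-in centring, with the replicate block, with the seed covariate or on the 3 arrays low in seed transcripts. The median difference of the 13 was -0.064, and 0 were called lower.

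**Figure D4:**
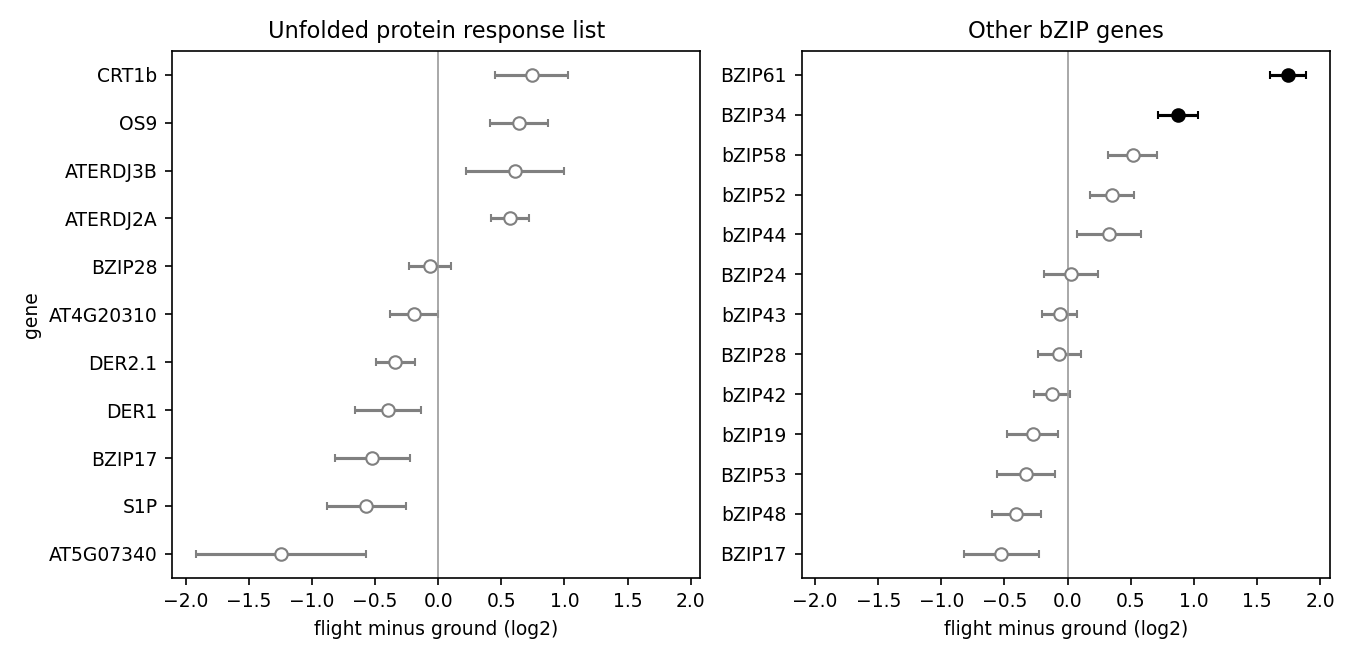
Flight minus ground difference (log2, horizontal axis) with the SE from limma for the 11 measured genes of the unfolded protein response list and for 13 other bZIP genes; filled points passed an adjusted p under 0.05. Only BZIP61 and BZIP34 are filled, both to the right of 0.

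Relatives of STZ could be followed in 3 of 11 listed zinc finger genes. AT2G28200 was called higher in flight, as were 4.13% of all probe sets, against the direction of STZ. It read 5.11, 5.64 and 5.37 on the ground and 6.40, 6.21 and 6.30 in flight. The rise was 0.93 (SE 0.17, limma adjusted p 0.0278). Its call was lost without any 1 flight array or without ground replicate 4, and also after spike-in centring, with the replicate block and on the 3 arrays low in seed transcripts. AT2G28710 and AT3G53600 lay below the array medians on all arrays, with differences of -0.12 (adjusted p 0.667) and -0.10 (0.732).

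Of 26 listed genes of the rapid response to wounding, cold and touch, in which STZ is often induced, 2 were measured and 0 called (limma, 0 at an unadjusted p under 0.05). WRKY53 differed by -0.39 (SE 0.31, adjusted p 0.549) and the calmodulin-like gene CML38 by -0.19 (SE 0.18, 0.620). Among 6 genes with a WRKY symbol, grouped after the values were seen, 1 was called lower and 0 higher. The shares over all probe sets were 1.82% lower and 4.13% higher. WRKY6, a factor known from senescence and phosphate supply, fell from 3.90 ± 0.44 to 2.73 ± 0.16 (log2, SD, n = 3), a difference of -1.17 (SE 0.23, limma adjusted p 0.0347). Its call was lost without any 1 flight array and with spike-in centring, the replicate block, the seed covariate or the 3 arrays low in seed transcripts. Of 47 listed genes of abscisic acid synthesis and signalling, the pathway that PUB19 acts on, 0 are named for a single-gene probe set in the annotation used. That pathway was not analysed here. Since 8730 probe sets carry no gene name, absence of these genes from the array cannot be read from this.

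The genes whose 6 array values correlated best with each member were sought among 349 named probe sets with a mean above the median of all and an SD of at least 1. They were lower in flight as the members are, which the measure favours, and the 5 closest genes of each member made 15 different genes with none in common. Pearson's r over the 6 arrays was 0.935 to 0.995 for STZ, 0.970 to 0.995 for BZIP60 and 0.964 to 0.985 for PUB19. None of the 15 carries a symbol in the tables used.

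AT5G47610 was the closest to STZ (r = 0.995), at 4.72, 5.48 and 4.81 on the ground and 1.90, 2.41 and 2.22 in flight. Ground replicate 3 was its highest array and flight replicate 2 its lowest, as in STZ, but of the 5 genes only 2 shared the highest ground array of STZ, 3 its lowest ground array, 2 its highest flight array and 2 its lowest. The next were AT4G16146 (r = 0.951), AT4G38810 (0.949), AT5G10695 (0.945) and AT4G13010 (0.935).

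AT3G02480 was the closest to BZIP60 (r = 0.995), at 7.58, 7.46 and 9.80 on the ground and 2.58, 2.91 and 4.39 in flight. The SD of BZIP60 over the 6 arrays was 0.60, below the limit of 1 set for the genes searched. A wider spread than that of BZIP60 was thus fixed by the rule. AT3G02480 was followed by AT1G23710 (0.986), AT1G78070 (0.980), AT5G05220 (0.979) and AT4G25580 (0.970). All 5 were highest in ground replicate 4 among ground arrays and in flight replicate 4 among flight arrays, as BZIP60 was, while 4 shared its lowest flight array and 3 its lowest ground array. Choosing genes by correlation over these 6 arrays favours a shared order of arrays.

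AT3G17110 was the closest to PUB19 (r = 0.985), at 7.75, 6.82 and 7.71 on the ground and 5.43, 4.39 and 4.54 in flight. AT2G31945 (0.983), AT3G62260 (0.981), AT3G10020 (0.966) and AT5G58660 (0.964) came next. All 5 were lowest in flight replicate 3 among flight arrays, as PUB19 was, and 4 of the 5 shared its low ground replicate 3, while 3 shared its highest flight array and 2 its highest ground array.

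**Figure D5:**
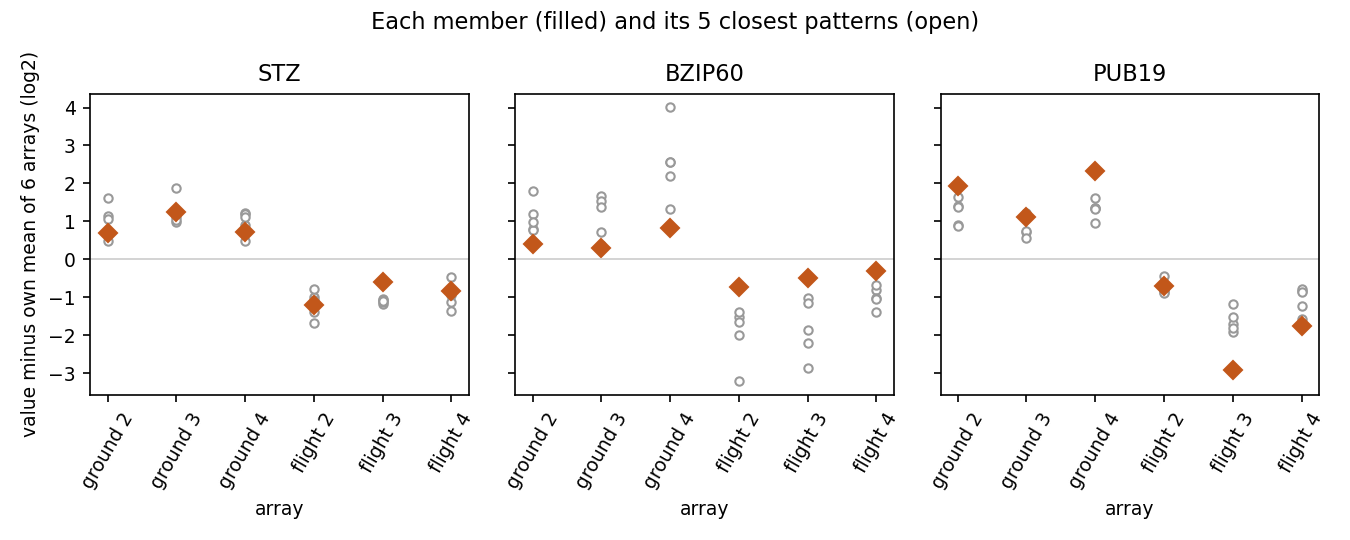
Value of each array minus the gene's own mean over 6 arrays (log2, vertical axis) for each member (filled) and the 5 genes with the highest Pearson r to it (open). The BZIP60 panel shows open points that range more widely than BZIP60, which the SD of at least 1 asked of them fixed. In the PUB19 panel all genes are lowest in flight replicate 3.

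The nearest measured genes on the chromosome, 2 on each side of each member, are given by their values. Of these 12 neighbours 0 were called lower and 1 was called higher by limma (adjusted p under 0.05), and their differences ran from -0.89 to 1.27. With 1.82% of all probe sets called lower and 4.13% higher, these counts do not set the neighbours apart. The one called was AT1G27690, with 4 genes between it and STZ, which rose by 1.27 (adjusted p 0.0184). AT1G60200, directly beside PUB19, had the largest negative difference, -0.89 (SE 0.21, adjusted p 0.0587). It read 7.17, 7.49 and 7.63 on the ground and 6.67, 6.16 and 6.79 in flight. Both direct neighbours of BZIP60, AT1G42980 and AT1G43000, lay below the array medians, with differences of -0.28 and -0.049.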

How the data were processed

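RNA was column-extracted, amplified with a whole-transcriptome kit and biotin-labelled, per the labels' protocols. The authors deposited 1 value table of 22810 probe sets on 6 arrays, taken here as log2 values from their range (0.63 to 12.98). RMA, MAS5 and PLIER appear as tools in the list taken from the submitters' processing notes, without saying from which the table came. The values were not normalized again. Leaving out 64 control probe sets, 22746 entered a two-sided moderated comparison without covariates (lmFit and eBayes of limma 3.58.1, run in R 4.3.3), with Benjamini-Hochberg adjustment over all of them and a threshold of 0.05. The procedure was tested on simulated data. Of these probe sets, 13513 have 1 gene symbol, 503 several and 8730 none; names were updated by gene identifier to RefSeq symbols (assembly TAIR10.1), and chromosomal order came from the same table. A listed gene counts as measured where the annotation names a single-gene probe set for it. A listed gene with several probe sets is given by that with the highest mean. Members, lists and rules were chosen with earlier results of these data known, and the bZIP and WRKY groups, by symbol, after the values were seen.

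Named were the 3 members, the called genes of each list (at most 6) with PUB22, PUB23, PUB24 and the largest differences, and the 5 genes most correlated with each member; other list genes and the chromosomal neighbours were added after their values were seen. The ± values are SD over 3 arrays; the SE of the members' differences comes from the 2 group SDs, and other SE are limma's moderated ones. Alternatives were quantile normalization, median and spike-in centring, array weights, a trended and robust prior, dropping dim probe sets, a replicate block, a seed marker covariate and leaving out arrays. The shared replicate numbers were not taken as pairs. The plots used matplotlib 3.10.9 under Python 3.11.15.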

Additional observations from a re-analysis of the deposited data

How the results depend on the processing

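Over the scalings, the seed covariate and the arrays left out, the differences ran from -1.92 to -1.59 for STZ, -1.18 to -0.87 for BZIP60 and -4.13 to -3.01 for PUB19. In these 3 genes every flight array was below every ground array, so leaving out arrays could not change the sign. Outside the settings that left out 1 array, BZIP60 was no longer among the called probe sets with spike-in centring, BZIP60 and PUB19 with the seed covariate, and all 3 on the 3 arrays low in seed transcripts, a fit of 2 arrays against 1 that takes the lone ground array to vary like the flight ones. Since the genes were chosen on these values, such calls do not measure stability. The mean of the spike-in controls was 9.61 in ground replicate 4 and 10.13 to 10.20 on every other array. Spike-in centring therefore mainly raised ground replicate 4. Over all probe sets, 939 were called higher and 413 lower. The number higher was 470 with spike-in centring, 385 with the seed covariate and 346 on the 3 arrays low in seed transcripts, and the cause was not tested; the smaller number of arrays is part of the last. Leaving out 1 array gave 188 to 1124 higher and 83 to 782 lower, with the lowest counts without flight replicate 3 and the highest without ground replicate 2. Of the 24 measured genes of 5 lists, 1 was called higher and 0 lower, beside 4.13% and 1.82% of all probe sets. The abscisic acid list is 1 of the 5 and had 0 genes measured. Those higher were 0 with spike-in centring, the replicate block or the 3 arrays low in seed transcripts and 0 to 2 with 1 array left out. Those lower were 1, PUB24, with spike-in centring, the seed covariate or those 3 arrays, whose ground array is the highest for PUB24, and 0 to 1 with 1 array left out. With the replicate block 733 probe sets were higher and 373 lower. Deviations of arrays with the same number correlated at 0.20, -0.03 and 0.27 for replicates 2, 3 and 4. For flight and ground arrays with unlike numbers the correlations ran from -0.39 to 0.23. These ranges overlapped, and the numbers were not taken to pair the arrays. No detection calls were used here, so values near the array medians have no known floor.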
